A study of Sus scrofa with 4 samples.

Results

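The genes described here store iron, move it across membranes or sense it, and were taken by symbol from a list of 10: FTH1, FTL, TFRC, SLC11A2, SLC40A1, IREB2, ACO1, STEAP3, NCOA4 and LCN2. Of these, 9 had a row in the deposited count files, which list 35670 genes, and all 9 passed the filter on low counts. No row of the files, and no entry of the gene name table, carried the symbol FTH1, so the heavy ferritin chain is not analysed here. RNA came from porcine fetal fibroblasts (PFFs), fibroblasts of pig skin that serve as nuclear donors in cloning, and both groups had been kept under serum starvation. The tested cells, 2 libraries, have the genotype label BRG1-overexpressed, and the controls, also 2 libraries, have the genotype label WT. BRG1, encoded by SMARCA4, is the ATPase of the BAF (SWI/SNF) complex, which moves nucleosomes. All 4 titles include pTK-642, a name left unexplained by the labels. Nothing says that the libraries of a group came from separate cultures, so the spread behind each p-value is that between these libraries and may be technical.

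Cells take up most of their iron as transferrin bound to the transferrin receptor, reduce it in endosomes and pass it into the cytosol through a divalent metal transporter. Iron that is not used is stored inside ferritin, a shell of heavy and light chains, or leaves the cell through ferroportin. A pair of iron regulatory proteins, encoded by ACO1 and IREB2, bind hairpins called iron-responsive elements in messenger RNAs when iron is scarce. In mammals such an element lies in the leader of the ferritin and ferroportin messages, where binding blocks translation, and in the tail of the transferrin receptor message and of some forms of the SLC11A2 message, where binding at the receptor message protects it from decay. Much of this control acts on translation and does not show in counts of RNA.

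The counts per gene summed to 36238580 and 34684837 in the libraries labelled BRG1 and to 38126860 and 34486400 in the controls. Among the 14617 genes tested, the threshold of 0.05 on the adjusted p was passed by 44.6%, 21.0% as higher and 23.6% as lower in the libraries labelled BRG1, so that a call for a single gene is common in these data. With scaling by library size alone in place of TMM (trimmed mean of M values), the median of all genes moved up by 0.23 on the log2 scale and the counts were 4819 higher and 2140 lower, against 3068 and 3444. SMARCA4 itself had 159 and 163 CPM (counts scaled to library size and TMM factors) in the libraries labelled BRG1, against 154 and 179 CPM in controls, a log2 fold change of -0.04 ± 0.11 (SE; adjusted p = 0.765, edgeR quasi-likelihood test). It did not separate the groups, so the counts of the pig gene do not check the label, and reads of an introduced sequence need not be counted under it. Reads that fell in no annotated gene were 10.3% and 10.5% of the total in the libraries labelled BRG1, against 6.11% and 7.34% in controls. The summed level of 9 fibroblast markers was 47528 and 47890 CPM in the libraries labelled BRG1, against 26939 and 31399 CPM in controls. Of the 9, 6 passed as higher and 0 as lower. The rise was not uniform. FN1 alone had 12202 and 12519 CPM in the libraries labelled BRG1, against 2191 and 3346 CPM in controls. VIM, COL3A1 and PDGFRB did not pass, and VIM and COL3A1 lay below both controls in both libraries labelled BRG1. Erythroid markers, which would mark iron-rich red cell precursors, were at or near 0, with HBB, KLF1 and AHSP at 0 reads in all 4 libraries and 0 of 8 passing the filter. The 6 endothelial markers summed to 8.18 and 8.97 CPM in the libraries labelled BRG1, against 6.03 and 5.17 CPM in controls. Of the 3 tested, PECAM1 passed as higher, with 6.30 and 7.05 CPM in the libraries labelled BRG1, against 2.48 and 3.24 CPM in controls. VWF, which lay below the controls, and CLDN5, which lay above them, did not pass. The 6 skeletal muscle markers summed to 1.78 and 0.80 CPM in the libraries labelled BRG1, against 0.91 and 0.81 CPM in controls. In bulk RNA, fewer cells of a type and less RNA per cell cannot be told apart.

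Iron genes changed in both directions. Of the 9 members, 4 rose in the libraries labelled BRG1 (SLC40A1, LCN2, IREB2 and NCOA4), 3 fell (SLC11A2, FTL and ACO1) and 2 did not pass (TFRC and STEAP3). Over all genes tested the corresponding shares are 21.0% higher and 23.6% lower. The median log2 fold change of the 9 was -0.07, against 0.02 over all genes tested. The groups did not overlap for 8 of the 9 members, as for 73.2% of all genes tested: 4 lay above the controls and 4 below, against 37.5% and 35.7% of all genes. Without library 2 labelled BRG1 only SLC40A1 and LCN2 passed as higher, and without library 1 labelled BRG1 these and IREB2 did. FTL and SLC11A2 passed as lower in both cases. The sizes of the differences are shown with their intervals in the plot of fold changes.

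**Figure D1:**
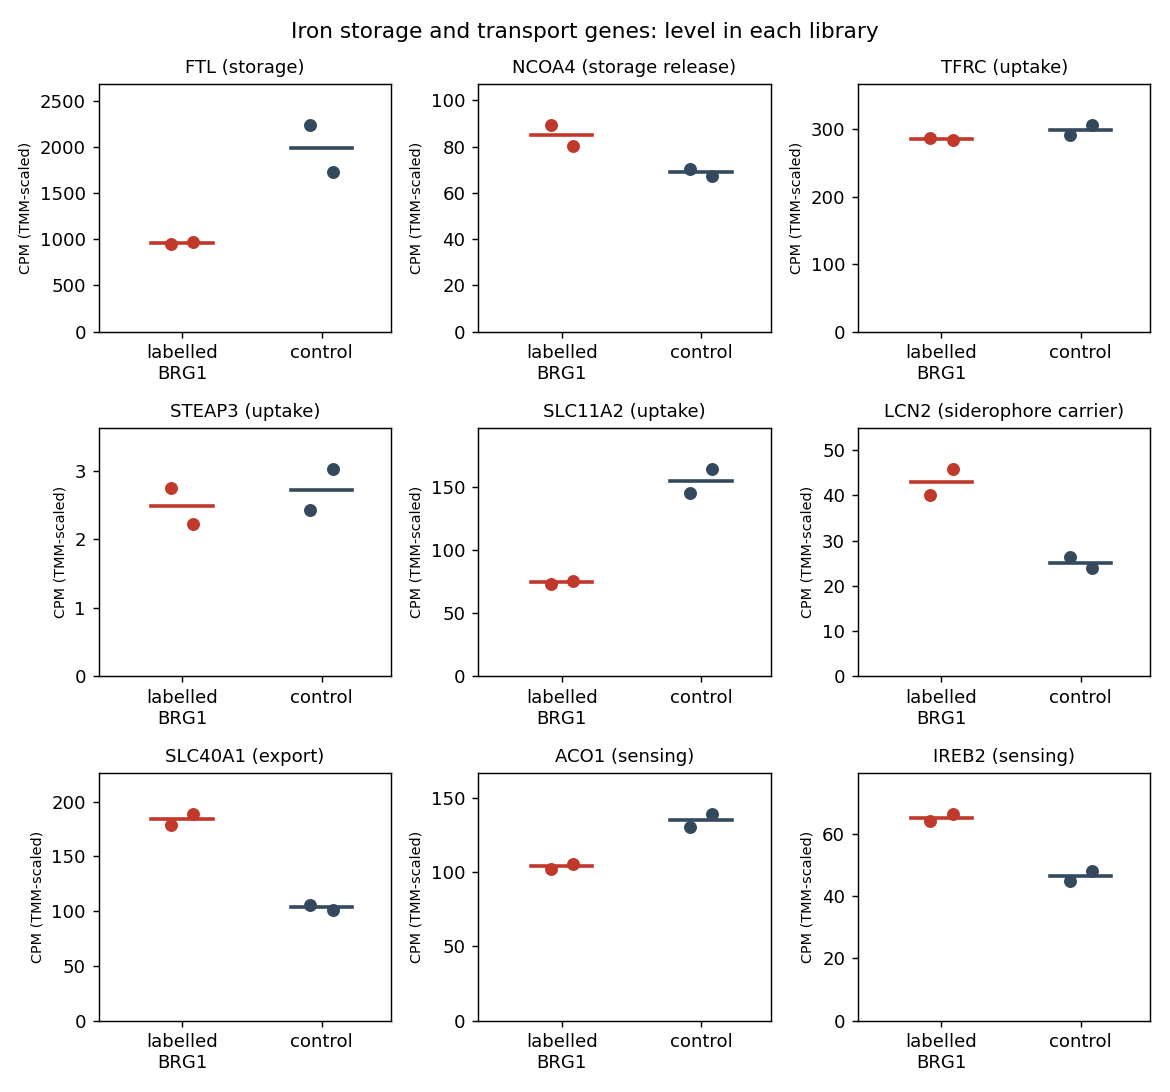
Level of each of the 9 iron genes in CPM (TMM-scaled; y axes start at 0 and differ between panels) in the libraries labelled BRG1 (red) and the controls (dark), with points for the 2 libraries of each group and a bar for their mean. FTL and SLC11A2 lie lower and SLC40A1 and LCN2 higher in both libraries labelled BRG1, while the STEAP3 points of the groups overlap.

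Storage was represented by FTL, the ferritin light chain, and by NCOA4, the receptor that carries ferritin to lysosomes so that its iron is released. FTL (ENSSSCG00000003153; Sscrofa11.1 chromosome 6, 54231121 to 54232756) had 943 and 973 CPM in the libraries labelled BRG1 (36989 and 36446 reads), against 2236 and 1727 CPM in controls (78300 and 55468 reads). Its level in the libraries labelled BRG1 was 0.48-fold that of controls (log2 fold change -1.05 ± 0.13 SE; adjusted p = 1.27e-05, edgeR quasi-likelihood test). The groups did not overlap, and the controls lay farther apart from each other than the libraries labelled BRG1 did. Against control 2 alone the log2 fold change was -0.86, and against control 1 alone it was -1.24.

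FTL spans 1636 bases of the genome, the shortest span of the 9 members. With each library's trend of level with gene span removed, the fall in FTL passed at a log2 fold change of -0.60, and it was -0.82 with scaling by library size alone. Ferritin chains have processed pseudogenes in mammals, and reads that fit more than 1 place are not assigned to a gene. Their share was 1.42% and 1.42% in the libraries labelled BRG1 and 1.80% and 1.60% in controls. Their part in the FTL value was not tested.

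NCOA4 (ENSSSCG00000010399; chromosome 14, 90505614 to 90531302) had 89.4 and 80.3 CPM in the libraries labelled BRG1, against 70.6 and 67.1 CPM in controls. Both libraries labelled BRG1 lay above both controls, and the level was 1.23-fold higher (log2 fold change 0.30 ± 0.10 SE; adjusted p = 0.0283, edgeR quasi-likelihood test). This was the smallest of the changes that passed, and it no longer passed without library 1 labelled BRG1 (0.22; adjusted p = 0.419), without library 2 (0.37; adjusted p = 0.137) or with no filter on low counts (0.27; adjusted p = 0.0541). It was 0.53 with scaling by library size alone.

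Uptake was represented by TFRC, STEAP3 and SLC11A2. TFRC (ENSSSCG00000011848; chromosome 13, 133976765 to 133997554), the transferrin receptor, had 287 and 285 CPM in the libraries labelled BRG1, against 292 and 307 CPM in controls. Although both libraries labelled BRG1 lay below both controls, the difference did not pass (log2 fold change -0.07 ± 0.10 SE; adjusted p = 0.623, edgeR quasi-likelihood test). The 95% interval ran from 0.82-fold to 1.11-fold, and the value turned positive with scaling by library size alone (0.16), with upper quartile scaling (0.04) and once the span trend was removed (0.01). STEAP3 (ENSSSCG00000029304; chromosome 15, 24736556 to 24785376), a ferrireductase that reduces iron in the endosomes of red cell precursors, was read only 108 and 83 times in the libraries labelled BRG1 and 85 and 97 times in controls. The levels of 2.75 and 2.22 CPM in the libraries labelled BRG1 and 2.43 and 3.02 CPM in controls overlapped (log2 fold change -0.13 ± 0.32 SE; adjusted p = 0.775, edgeR quasi-likelihood test). At this depth the interval, from 0.57-fold to 1.47-fold, leaves room for moderate differences either way.

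SLC11A2 (ENSSSCG00000034039), also called DMT1, carries ferrous iron out of endosomes and, in the gut, into the cell. It had 72.9 and 75.5 CPM in the libraries labelled BRG1 (2861 and 2827 reads), against 145 and 164 CPM in controls (5065 and 5256 reads). The groups lay far apart, at 0.48-fold the control level (log2 fold change -1.05 ± 0.10 SE; adjusted p = 1.32e-06, edgeR quasi-likelihood test), the smallest adjusted p of the 9 members. It passed as lower under all 14 alternative settings, with log2 fold changes between -1.15 and -0.83. The RefSeq table of the same build places the gene on no chromosome. Counts per gene do not separate the SLC11A2 messages with an iron-responsive element from those without.

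Among 9573 genes with a symbol and a mean log2 CPM of at least 2, the genes whose levels over the 4 libraries ran closest to SLC11A2 were PXYLP1, CORO2B and TTYH2. Their centred log2 CPM lay within a root mean square distance of 0.020, 0.021 and 0.023 of that of SLC11A2. PXYLP1 had 20.4 and 20.4 CPM in the libraries labelled BRG1, against 39.3 and 45.0 CPM in controls. With 4 libraries in 2 groups such closeness is common, and 116 genes lay within 0.1.

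LCN2 (ENSSSCG00000005638; chromosome 1, 268609975 to 268614651) encodes lipocalin 2, a secreted protein that binds iron-carrying siderophores and is stored in neutrophil granules and made by epithelia in inflammation. It had 40.0 and 45.7 CPM in the libraries labelled BRG1 (1570 and 1712 reads), against 26.2 and 23.9 CPM in controls (919 and 767 reads). Both libraries labelled BRG1 lay above both controls, with a 1.71-fold higher level (log2 fold change 0.77 ± 0.12 SE; adjusted p = 0.000147, edgeR quasi-likelihood test). The rise passed under all 14 alternative settings, with log2 fold changes from 0.67 to 1.09. Of 7 neutrophil markers 5 had a row, MPO and LTF had 0 reads in all 4 libraries, and the summed level of the list was 2.42 and 2.59 CPM in the libraries labelled BRG1, against 3.88 and 3.21 CPM in controls. The 7 epithelial markers with a row summed to 5.56 and 6.20 CPM in the libraries labelled BRG1, against 43.3 and 36.7 CPM in controls, with KRT5 and KRT8 at 0 reads in all libraries and ELF3, an epithelial transcription factor, giving most of the sum. The sum of neither list was higher in the libraries labelled BRG1, but markers within each list differed in direction. ELANE had 2.24 and 2.38 CPM in the libraries labelled BRG1, against 1.31 and 1.37 CPM in controls, and did not pass. S100A8 passed as lower, with 0.15 and 0.21 CPM in the libraries labelled BRG1, against 2.40 and 1.81 CPM in controls. Among epithelial markers, ELF3 and EPCAM passed as lower. CDH1 had 2 and 33 reads in the libraries labelled BRG1 and KRT18 had 1 and 1, against 0 and 0 for each in controls. Neither CDH1 nor KRT18 passed the filter on low counts. Which cells gave the LCN2 reads was not tested.

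SLC22A17, a receptor for LCN2, had 90.8 and 90.3 CPM in the libraries labelled BRG1, against 73.4 and 77.8 CPM in controls (log2 fold change 0.26 ± 0.10 SE; adjusted p = 0.0450, edgeR quasi-likelihood test). This call was lost in 7 of 14 alternative settings, DESeq2 (adjusted p = 0.0661), the replicate number as a block (adjusted p = 0.0524) and the fits without either library labelled BRG1 among them. It was 0.49 with scaling by library size alone and 0.54 without the span trend.

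LCN2 is also an acute-phase gene, and the acute-phase list set beside it held regulators too, IL6, NFKBIZ and STAT3 among them. Of 15 genes in this list 10 had a row and 9 were tested. HP, SAA2, SAA3, SERPINA3 and ORM1 had no row under their symbols, and CRP was not tested. Of the 9 tested genes 5 fell and 1 rose, against 23.6% lower and 21.0% higher over all genes. The median of the list was -0.91 on the log2 scale. CEBPD (-0.28), PTX3 (-0.07) and LBP (1.47) did not pass. LBP had only 19 and 26 reads in the libraries labelled BRG1, against 4 and 10 reads in controls. The list does not show a fall of acute-phase proteins as a class. IL6, an inflammatory cytokine, had 443 and 466 CPM in the libraries labelled BRG1, against 2225 and 1994 CPM in controls (log2 fold change -2.22 ± 0.12 SE). NFKBIZ, a co-activator that LCN2 induction needs in mouse cells, had 227 and 225 CPM in the libraries labelled BRG1, against 566 and 591 CPM in controls (log2 fold change -1.36 ± 0.10 SE). SOD2, a mitochondrial superoxide dismutase, fell by 1.82 and C3, a complement protein, by 1.33 on the log2 scale. STAT3, a transcription factor downstream of interleukin-6, was the single gene to rise (0.45 ± 0.10 SE), and it no longer passed without either library labelled BRG1, where the list held 0 rises and 5 falls. Macrophages also make acute-phase and iron storage proteins, and the 8 macrophage markers summed to 45.4 and 45.9 CPM in the libraries labelled BRG1, against 84.4 and 86.6 CPM in controls. Nearly all of that sum was CD14, a lipopolysaccharide co-receptor, with 42.3 and 42.2 CPM in the libraries labelled BRG1, against 80.7 and 82.2 CPM in controls. Of the 3 markers tested 2 fell, CD14 and TYROBP. The other, CD68, did not pass and lay above both controls. It had 2.45 and 2.83 CPM in the libraries labelled BRG1, against 1.29 and 2.40 CPM in controls. PTPRC and MRC1 had 0 reads in all 4 libraries. CSF1R had 1 and 4 reads in the libraries labelled BRG1, against 2 and 0 in controls. CD163 had 0 and 8 reads, against 0 and 0 in controls, and AIF1 had 8 and 0, against 4 and 1 in controls. The part of these markers in the falls of FTL and of genes in the acute-phase list was not tested.

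Export was represented by SLC40A1 (ENSSSCG00000027157; chromosome 15, 94140635 to 94161793), ferroportin, the iron exporter of mammalian cells. It had 179 and 189 CPM in the libraries labelled BRG1 (7019 and 7066 reads), against 106 and 101 CPM in controls (3704 and 3255 reads). Both libraries labelled BRG1 lay above both controls, with a 1.77-fold higher level (log2 fold change 0.83 ± 0.10 SE; adjusted p = 9.75e-06, edgeR quasi-likelihood test). The rise passed under all 14 alternative settings, with log2 fold changes from 0.78 to 1.05. Hepcidin, the hormone encoded by HAMP that removes ferroportin from the membrane, had 0 and 1 reads in the libraries labelled BRG1 and 0 and 8 reads in controls, too few to test.

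The ferroxidases that work with ferroportin were scarce. CP, ceruloplasmin, was read 72 and 51 times in the libraries labelled BRG1, against 8 and 27 times in controls (log2 fold change 1.59 ± 0.61 SE; adjusted p = 0.0462, edgeR quasi-likelihood test). Its value was 0.92 without control 1 (adjusted p = 0.204) and 2.77 without control 2, and it also failed to pass without either library labelled BRG1 (adjusted p = 0.237 and 0.0581) and once the span trend was removed (adjusted p = 0.0503). HEPH, hephaestin, had 6 and 3 reads in the libraries labelled BRG1 and 5 and 1 reads in controls.

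The iron regulatory proteins moved in opposite directions. IREB2 (ENSSSCG00000001756; chromosome 7, 47481539 to 47529199), iron regulatory protein 2, is controlled by degradation of the protein. It had 64.0 and 66.4 CPM in the libraries labelled BRG1, against 45.0 and 48.1 CPM in controls, and rose 1.40-fold (log2 fold change 0.49 ± 0.10 SE; adjusted p = 0.00153, edgeR quasi-likelihood test). It missed the threshold without library 2 labelled BRG1 (0.46; adjusted p = 0.0583). ACO1 (ENSSSCG00000023807; chromosome 10, 33937833 to 34001895), iron regulatory protein 1, acts as an aconitase when it holds an iron-sulfur cluster and binds RNA when it does not. It had 102 and 106 CPM in the libraries labelled BRG1, against 131 and 139 CPM in controls, or 0.77-fold (log2 fold change -0.38 ± 0.10 SE; adjusted p = 0.00606, edgeR quasi-likelihood test). The fall in ACO1 did not pass with scaling by library size alone (-0.15; adjusted p = 0.223), without library 1 labelled BRG1 (-0.35; adjusted p = 0.197) or without library 2 (-0.41; adjusted p = 0.123).

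FBXL5, the iron-binding subunit of the ubiquitin ligase that marks IREB2 protein for degradation, had 36.1 and 33.9 CPM in the libraries labelled BRG1, against 49.9 and 47.5 CPM in controls. It fell by 0.48 ± 0.11 (SE) on the log2 scale (adjusted p = 0.00277, edgeR quasi-likelihood test), but did not pass with scaling by library size alone (-0.25; adjusted p = 0.0737) or without library 2 labelled BRG1 (adjusted p = 0.0924).

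**Figure D2:**
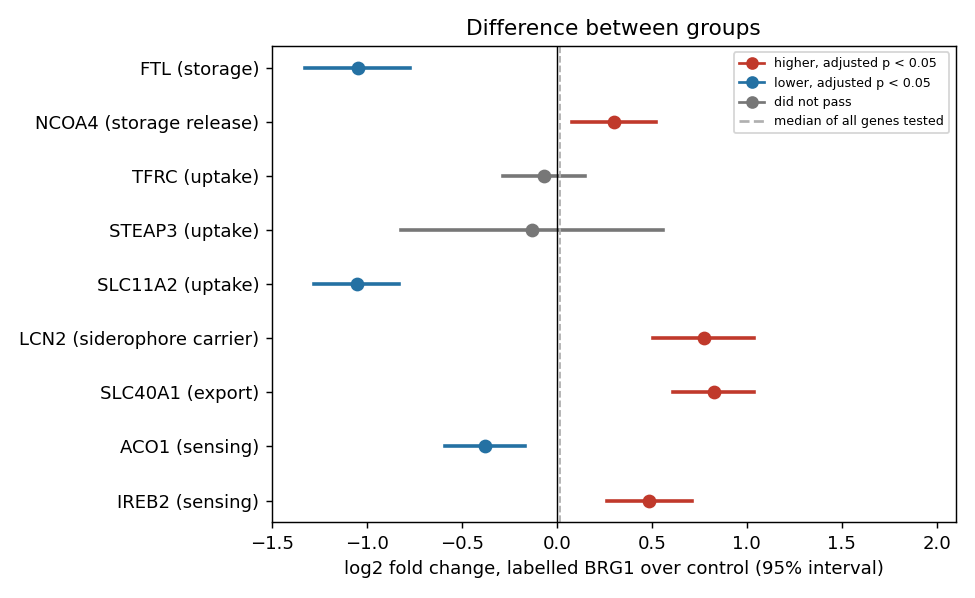
Log2 fold change of the 9 iron genes, libraries labelled BRG1 over controls, with 95% intervals of the edgeR fit (x axis); colours mark genes that passed as higher or lower or did not pass, and the dashed line is the median of all genes tested. FTL and SLC11A2 lie near -1.05, SLC40A1 and LCN2 near 0.8, and the interval of STEAP3, the gene with the fewest reads, is the widest.

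Messages that carry an iron-responsive element in mammals did not move as 1 group. Of the genes with the element in the leader, FTL fell and SLC40A1 rose. Of those with it in the tail, SLC11A2 fell and TFRC did not pass. Counts per gene do not show whether the reads of these genes, SLC40A1 included, came from forms with the element. Ratios of read counts within a library show the same contrasts without any scaling between libraries. For each SLC40A1 read there were 5.27 and 5.16 FTL reads in the libraries labelled BRG1, against 21.1 and 17.0 in controls. For each TFRC read there were 3.29 and 3.42 FTL reads in the libraries labelled BRG1, against 7.66 and 5.63 in controls.

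The exporter was read 2.45 and 2.50 times per SLC11A2 read in the libraries labelled BRG1, against 0.73 and 0.62 times in controls. SLC40A1 reads per TFRC read were 0.62 and 0.66 in the libraries labelled BRG1, against 0.36 and 0.33 in controls. FTL reads per NCOA4 read were 10.5 and 12.1 in the libraries labelled BRG1, against 31.7 and 25.7 in controls. The replicates lay closest for IREB2 reads per ACO1 read, at 0.629 and 0.629 in the libraries labelled BRG1, against 0.345 and 0.346 in controls. In all 6 ratios the groups did not overlap. Each pair joined a member that rose or fell with a member that moved the other way or did not pass. The separation therefore restates the member values and adds no support to them. Among all genes tested singly, the groups did not overlap for 73.2%. The smallest p that a two-sided exact permutation test of 2 against 2 libraries can give is 0.333. A ratio of reads between genes of different length is not a ratio of molecules, and only its difference between libraries can be read.

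**Figure D3:**
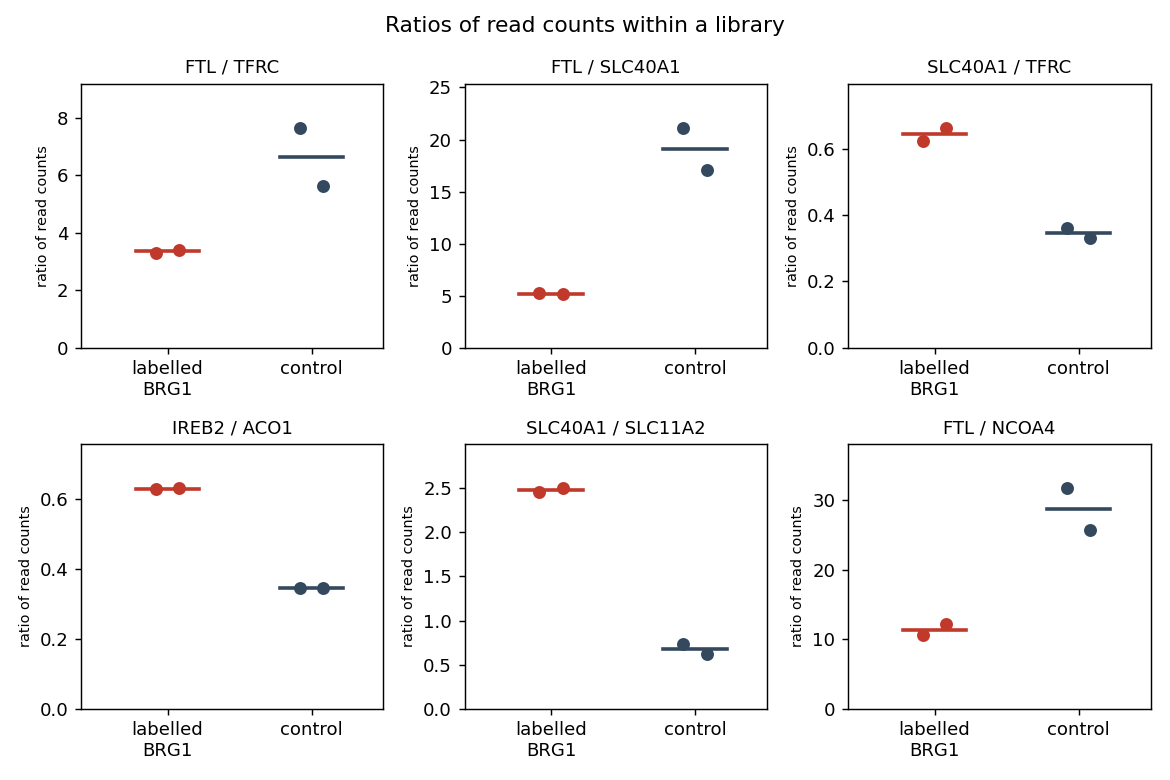
Ratios of read counts between pairs of iron genes within each library (y axes start at 0 and differ between panels), for the libraries labelled BRG1 (red) and the controls (dark); points are libraries and bars the mean of 2. IREB2 per ACO1 lies at 0.629 in both libraries labelled BRG1 and near 0.345 in controls, and FTL per SLC40A1 near 5 in the libraries labelled BRG1 and at 17.0 and 21.1 in controls.

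Other genes of iron transport and its regulation mostly fell. Of 27 such genes listed, 25 had a row and 16 were tested, of which 10 fell and 5 rose (62.5% and 31.2%, against 23.6% lower and 21.0% higher over all genes), with a median of -0.67 on the log2 scale. SLC39A14, a transporter that takes up iron not bound to transferrin, had 94.5 and 91.7 CPM in the libraries labelled BRG1, against 226 and 260 CPM in controls (log2 fold change -1.38 ± 0.11 SE). CYBRD1, a ferric reductase of the plasma membrane, was among the rises, with 188 and 179 CPM in the libraries labelled BRG1, against 79.9 and 81.5 CPM in controls (1.18 ± 0.10 SE). STEAP1, of the metalloreductase family, fell by 1.42 ± 0.12 (SE) on the log2 scale. Its fall was 0.86 without the span trend, but the RefSeq entry matched by symbol spans only 556 bases, on chromosome 5. STEAP2, of the same family, spans 30903 bases on chromosome 9. The span used for STEAP1 may not be that of the counted gene, so the 0.86 cannot be relied on. SLC25A28, which imports iron into mitochondria, fell by 1.22 ± 0.11 (SE).

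The chaperones PCBP1 and PCBP2, which hand iron to ferritin, fell by 0.72 ± 0.10 and 0.66 ± 0.11 (SE) on the log2 scale. PCBP1 had 155 and 160 CPM in the libraries labelled BRG1, against 272 and 247 CPM in controls, and its fall was 0.28 without the span trend. PCBP2 had 367 and 375 CPM in the libraries labelled BRG1, against 617 and 555 CPM in controls, and its fall was 0.43 with scaling by library size alone. HFE, which competes with transferrin for the receptor, had 17.4 and 17.1 CPM in the libraries labelled BRG1, against 14.0 and 12.5 CPM in controls (0.38 ± 0.15 SE; adjusted p = 0.0458, edgeR quasi-likelihood test). Its call was lost in 6 of 14 alternative settings, DESeq2 (adjusted p = 0.0856) and the fits without control 2 or without either library labelled BRG1 among them, and its value was 0.60 with scaling by library size alone and 0.63 without the span trend. Transferrin itself, encoded by TF, had 0 reads in all 4 libraries, which allows up to 0.0765 and 0.0801 CPM in the libraries labelled BRG1 and 0.0857 and 0.0934 CPM in controls (3 reads per library, counting error only). Leaving out library 1 labelled BRG1 gave 2 rises in this list and leaving out library 2 gave 1, and there were 3 with DESeq2, with no filter on low counts or without the span trend, while the falls stayed between 9 and 10.

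Of 20 tested genes of heme synthesis, breakdown and transport, 7 fell and 4 rose, with a median of -0.04. The share that rose, 20.0%, lay near the 21.0% over all genes, and the share that fell was 35.0%, against 23.6% over all genes. ALAS1, the rate-limiting enzyme of heme synthesis outside red cells, had 47.4 and 47.3 CPM in the libraries labelled BRG1, against 86.6 and 85.4 CPM in controls (log2 fold change -0.86 ± 0.10 SE). HMOX1, the inducible heme oxygenase that frees iron from heme, had 49.7 and 49.2 CPM in the libraries labelled BRG1, against 78.4 and 70.5 CPM in controls (-0.59 ± 0.11 SE, or -0.36 with scaling by library size alone and -0.35 without the span trend). HMOX2, its constitutive counterpart, fell by 0.85 ± 0.11 (SE), and BLVRB, a biliverdin reductase, by 1.28 ± 0.16 (SE). The split was 6 higher and 5 lower with scaling by library size alone and 6 and 6 with upper quartile scaling, with 2 rises when library 1 labelled BRG1 was left out and 1 when library 2 was.

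Iron-sulfur clusters are built in mitochondria and in the cytosol. Of 17 mitochondrial assembly genes tested 8 fell and 0 rose (median -0.32), or 47.1% lower, against 23.6% lower and 21.0% higher over all genes. HSPA9, the mitochondrial chaperone that takes part in cluster transfer, had 201 and 197 CPM in the libraries labelled BRG1, against 341 and 305 CPM in controls (log2 fold change -0.70 ± 0.10 SE). ISCU, the scaffold on which clusters form, did not pass, with 72.8 and 71.3 CPM in the libraries labelled BRG1, against 74.8 and 67.7 CPM in controls. The split was 1 higher and 3 lower with scaling by library size alone, 1 and 5 with upper quartile scaling and 2 and 4 without the span trend. It was also 2 and 4 without control 1, with 4 falls when library 1 labelled BRG1 was left out and 5 when library 2 was.

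Of 10 cytosolic assembly genes tested 4 fell and 0 rose (median -0.35), against 23.6% lower and 21.0% higher over all genes. CIAO2B, a subunit that targets clusters to client proteins, had 20.7 and 19.7 CPM in the libraries labelled BRG1, against 45.3 and 41.4 CPM in controls (-1.11 ± 0.12 SE). CIAPIN1, an electron carrier of cytosolic assembly, fell by 0.78 ± 0.13 (SE) on the log2 scale. There were 2 falls with scaling by library size alone, 2 when library 1 labelled BRG1 was left out and 7 when control 2 was.

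The list on ferroptosis, a form of death by iron-dependent lipid peroxidation, held 15 tested genes, of which 10 fell and 0 rose (median -0.57), or 66.7% lower, against 23.6% lower and 21.0% higher over all genes. GPX4, which reduces lipid hydroperoxides, had 165 and 174 CPM in the libraries labelled BRG1, against 290 and 273 CPM in controls (log2 fold change -0.73 ± 0.10 SE, or -0.33 without the span trend). SLC7A11 and SLC3A2, the subunits of the cystine importer that feeds glutathione synthesis, fell by 0.84 ± 0.12 and 0.94 ± 0.10 (SE). The genes that fell do not all act in defence. ACSL4, which loads polyunsaturated fatty acids into membranes and so favours peroxidation, fell by 1.39 ± 0.11 (SE), with 713 and 711 CPM in the libraries labelled BRG1, against 1851 and 1872 CPM in controls. LPCAT3, which acts in the same path, fell too (-0.78 ± 0.12 SE). The falls in this list numbered from 8 to 12 over the alternative settings.

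**Figure D4:**
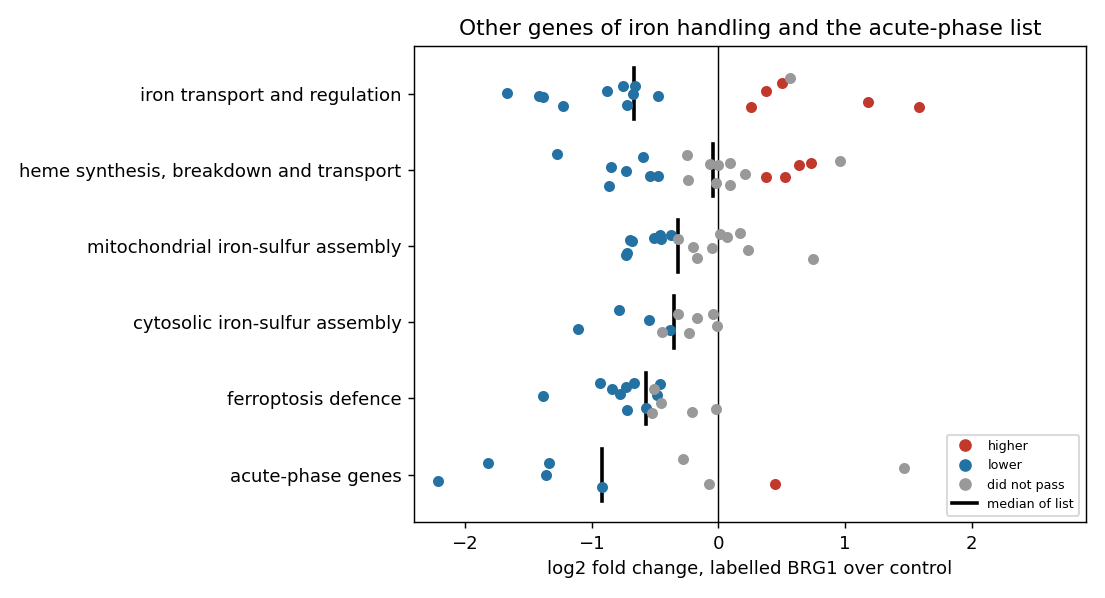
Log2 fold change, libraries labelled BRG1 over controls (x axis), of each tested gene in 6 lists of iron handling and acute-phase genes; points are genes, spread vertically for legibility and coloured by call, and black bars are list medians. The lists on iron-sulfur assembly and ferroptosis hold no gene that passed as higher, and the acute-phase list has the lowest median, -0.91.

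**Figure D5:**
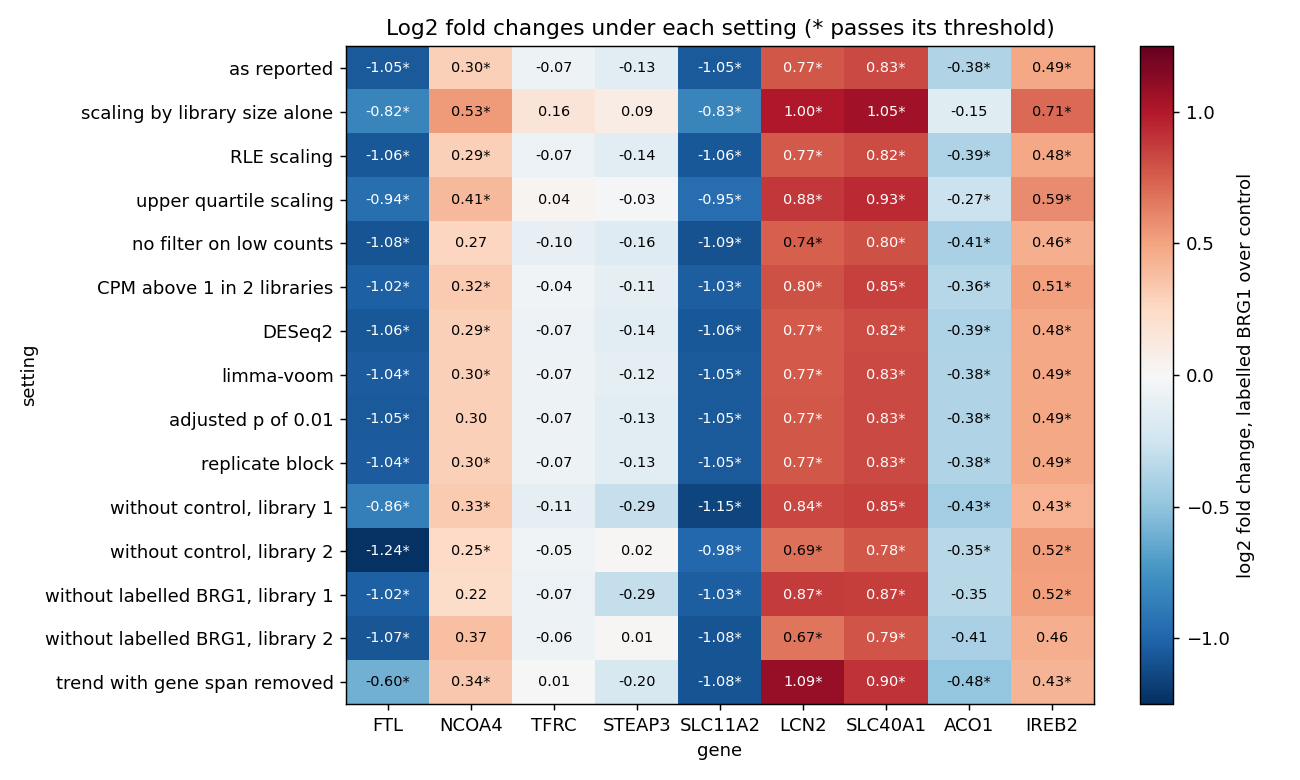
Log2 fold change of each iron gene (columns) in the reported fit and under the 14 alternative settings (rows), with colour for size and direction and an asterisk where the adjusted p passed the setting's threshold. FTL, SLC11A2, LCN2 and SLC40A1 keep the asterisk in every row, while TFRC and STEAP3 have none.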

How the data were processed

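Each library has 1 deposited file of raw counts, whole numbers for every Ensembl gene, which the authors had not normalized. The submitters' processing notes name the build Sscrofa11.1 and the tools STAR, SAMtools, FastQC, edgeR, DESeq2 and Cufflinks. The counter, its strand setting and the annotation release are not given in the sources used here, and reads of overlapping or antisense genes therefore cannot be separated. Rows without a gene entered neither library sizes nor tests; reads outside genes (6.11% to 10.5%) and reads on more than 1 gene (1.90% to 2.33%) are among them.

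Counts were fitted in R 4.3.3 with edgeR 4.0.16 (filterByExpr with minimum count 10 and minimum total 15, TMM, quasi-likelihood F test, prior count 0.125), with Benjamini-Hochberg adjustment over 14617 genes and a threshold of 0.05. SE is the size of the unshrunk log2 fold change over the root of the F statistic, and intervals are at 95%. The fit was tested on simulated data. Correlation of log2 CPM was 0.987 between the libraries labelled BRG1 and 0.983 between controls, and each pair differed by more than sampling noise. Positions and spans come from RefSeq's gene table for this build, which gave a span for 77.5% of genes tested. The members and lists were chosen with earlier results of these data known. Named genes are all members, up to 4 genes per list with the smallest adjusted p, and a chosen set of listed genes that act directly on a member. That set need not be complete. STAT3, ISCU, LPCAT3, CEBPD, PTX3, LBP and STEAP2 were chosen after their values were seen. For 1 erythroid marker, no value is reported here. Alternatives were 3 scalings, 2 filters, DESeq2 1.42.0, limma-voom 3.58.1, a threshold of 0.01, the replicate number as a block, each library left out, and a fit in which the trend of level with gene span was taken out of every library.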

Additional observations from a re-analysis of the deposited data

How the results depend on the processing

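FTL, SLC11A2, LCN2 and SLC40A1 kept their direction and passed in all 14 alternatives. Scaling by library size alone gave 4819 genes higher and 2140 lower, 3 mitochondrial and 2 cytosolic iron-sulfur genes lower, and TFRC at 0.16, STEAP3 at 0.094 and SMARCA4 at 0.18 on the log2 scale, which reverses their sign; none of the 3 passed. Upper quartile scaling gave TFRC at 0.038, SMARCA4 at 0.061 and 5 mitochondrial iron-sulfur genes lower. Removing the trend with gene span, which leaves out genes with no span, gave TFRC at 0.0077, 3 iron transport genes higher, 2 mitochondrial iron-sulfur genes higher and 4 lower, and 1 cytosolic one higher. Mitochondrial iron-sulfur genes higher numbered 1 with library size alone, upper quartile scaling, no filter and limma-voom. Iron transport genes higher numbered 3 with no filter and 3 with DESeq2. At a threshold of 0.01, 2 iron transport genes and 1 heme gene were higher and 5 mitochondrial iron-sulfur genes lower. The cause of these shifts was not tested.

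With 1 library left out, the counts over all genes ran from 1908 to 3673 higher and from 2177 to 4321 lower, and those of the members from 2 to 4 higher and from 2 to 3 lower. Higher genes numbered from 1 to 4 in the iron transport list, from 1 to 4 in the heme list, from 0 to 2 in the mitochondrial iron-sulfur list and from 0 to 1 in the acute-phase list. Lower genes numbered from 4 to 9 in the mitochondrial and from 2 to 7 in the cytosolic iron-sulfur list. The lone library is then assumed to vary like the others. Fits without a library labelled BRG1 take their spread from the controls, which differed more from each other than the libraries labelled BRG1 did. STEAP3 ranged from -0.29 to 0.018, reversing in the fits that left out control 2 (0.018) or library 2 labelled BRG1 (0.013). SMARCA4 ranged from -0.15, where it passed as lower with control 1 left out (adjusted p = 0.0251), to 0.048 with control 2 left out.

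With the replicate number as a block, 4 members were higher and 3 lower, 1 mitochondrial iron-sulfur gene was higher, and SLC22A17 no longer passed. The correlation over genes of the differences between numbered libraries was -0.04. With 1 difference per group, this value cannot show whether libraries of the same number shared a culture or a day. No member has several rows, so summing rows was not run. STEAP3, with 83 to 108 reads per library, is limited by depth.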
